A study of Mus musculus with 24 samples.

Results

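Creatine cycling and calcium cycling are routes by which adipocytes can turn over ATP without relying on *Uncoupling Protein 1 (Ucp1)*, the proton leak of brown fat mitochondria. In the creatine cycle, creatine kinase passes the phosphate of ATP to creatine, a phosphatase removes it again, and the ATP spent in between is lost as heat. In the calcium cycle, the SERCA pump spends ATP to move calcium into the endoplasmic reticulum, from which it leaks back. The 9 genes described here are *Gatm* and *Gamt* (the enzymes that make creatine), *Slc6a8* (the creatine transporter of the plasma membrane), *Ckb* and *Ckmt2* (the cytosolic brain-type and the sarcomeric mitochondrial creatine kinase), *Alpl* (tissue-nonspecific alkaline phosphatase), *Phospho1* (a phosphatase for phosphocholine and phosphoethanolamine), *Atp2a2* (the SERCA2 pump) and *Pm20d1* (a secreted enzyme that forms N-acyl amino acids, which can uncouple respiration). They were chosen by symbol, and all 9 were found among the 49452 genes of the table.

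RNA was sequenced from 24 libraries of primary stromal-vascular fraction (SVF) precursor cells of male C57BL/6 mice aged 6 to 8 weeks, from interscapular brown fat (BAT) or epididymal visceral white fat (vWAT). Cells of both depots received a non-targeting siRNA (siCtrl) or an siRNA against the lincRNA *H19* (siH19) by nucleofection, and were taken before induction (d0) or at day 3 of differentiation (d3), with 3 libraries in each of the 8 groups. The methods give IBMX for the induction of vWAT cells and indomethacin with triiodothyronine for that of BAT cells, and rosiglitazone or triiodothyronine, respectively, for the later medium (the labels give IBMX for both depots), so that depot and medium cannot be told apart. The libraries of each depot also carry a numbering series of their own, and BAT tissue could be pooled from several animals.

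Values are FPKM, fragment counts scaled to transcript length and to library size. Summed FPKM were 710794 to 841456 per library, and read totals are unknown. Depth relative to the median library was estimated indirectly, from ratios of very low FPKM between libraries, at 0.825 to 0.984 in BAT and 1.02 to 1.17 in vWAT. *H19* fell from 108 to 160 FPKM in siCtrl BAT cells to 2.82 to 5.20 FPKM in siH19 BAT cells at d0, and from 83.2 to 99.7 to 12.04 to 16.9 FPKM at d3. In vWAT it fell from 11.3 to 12.3 to 0.630 to 1.76 FPKM at d0, and from 8.19 to 8.90 to 0.291 to 0.966 FPKM at d3 (limma adjusted p = 0.00965, 1.55e-06 to 0.143 over the alternatives, with the call lost in 4 of 9, among them without siH19 replicate 1, at -2.59). At d3 in vWAT *H19* reached 1 FPKM, the minimum for a test, in its siCtrl libraries only, so that it could only be called lower. Summed over 7 adipocyte markers, BAT siCtrl libraries rose from 2513 to 2713 FPKM at d0 to 34962 to 36657 FPKM at d3, and vWAT siCtrl libraries from 3309 to 3333 to 17906 to 18887 FPKM. *Ucp1* reached 8.84 to 16.3 FPKM in siCtrl BAT cells at d3 and was listed at 0 in all 12 vWAT libraries.

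The labels give the siRNA of the knockdown libraries the number 3, whereas the methods name an unnumbered oligo, so the guide strands of both are shown, with the seed (bases 2 to 8) in capitals, because a seed can also pair with other mRNAs.
siH19: uCUUGAUUcagaacgagac
siH19#3: uGGUGUUCaagaaggcugg
The complement of the siH19 seed occurred in the 3' UTR of 1 of the 9 genes, *Pm20d1*, and in 8.87% of the 21028 genes with an annotated 3' UTR. The complement of the siH19#3 seed occurred in 0 of the 9 genes and in 6.55% of all.

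Comparisons were fitted with limma on log2(FPKM + 1). Only genes with 3 or more of the compared libraries at 1 FPKM or above were tested. A call needed a change of at least 1.3-fold on the fitted scale and, after Benjamini-Hochberg adjustment over all genes tested, a p below 0.05. By this rule 7 of the 9 genes were tested in every comparison. *Ckmt2*, which reached 1 FPKM in 1 of 24 libraries, and *Pm20d1*, which reached it in 0, were never tested, and their values are given with exact permutation tests, which cannot go below p = 0.1 for 3 against 3 libraries. Nothing says that the 3 libraries of a group came from separate animals, so that p-values measure the spread between libraries. The comparisons share libraries and are not independent of each other, and a change in bulk RNA cannot tell fewer cells of a type from less RNA per cell.

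**Figure D1:**
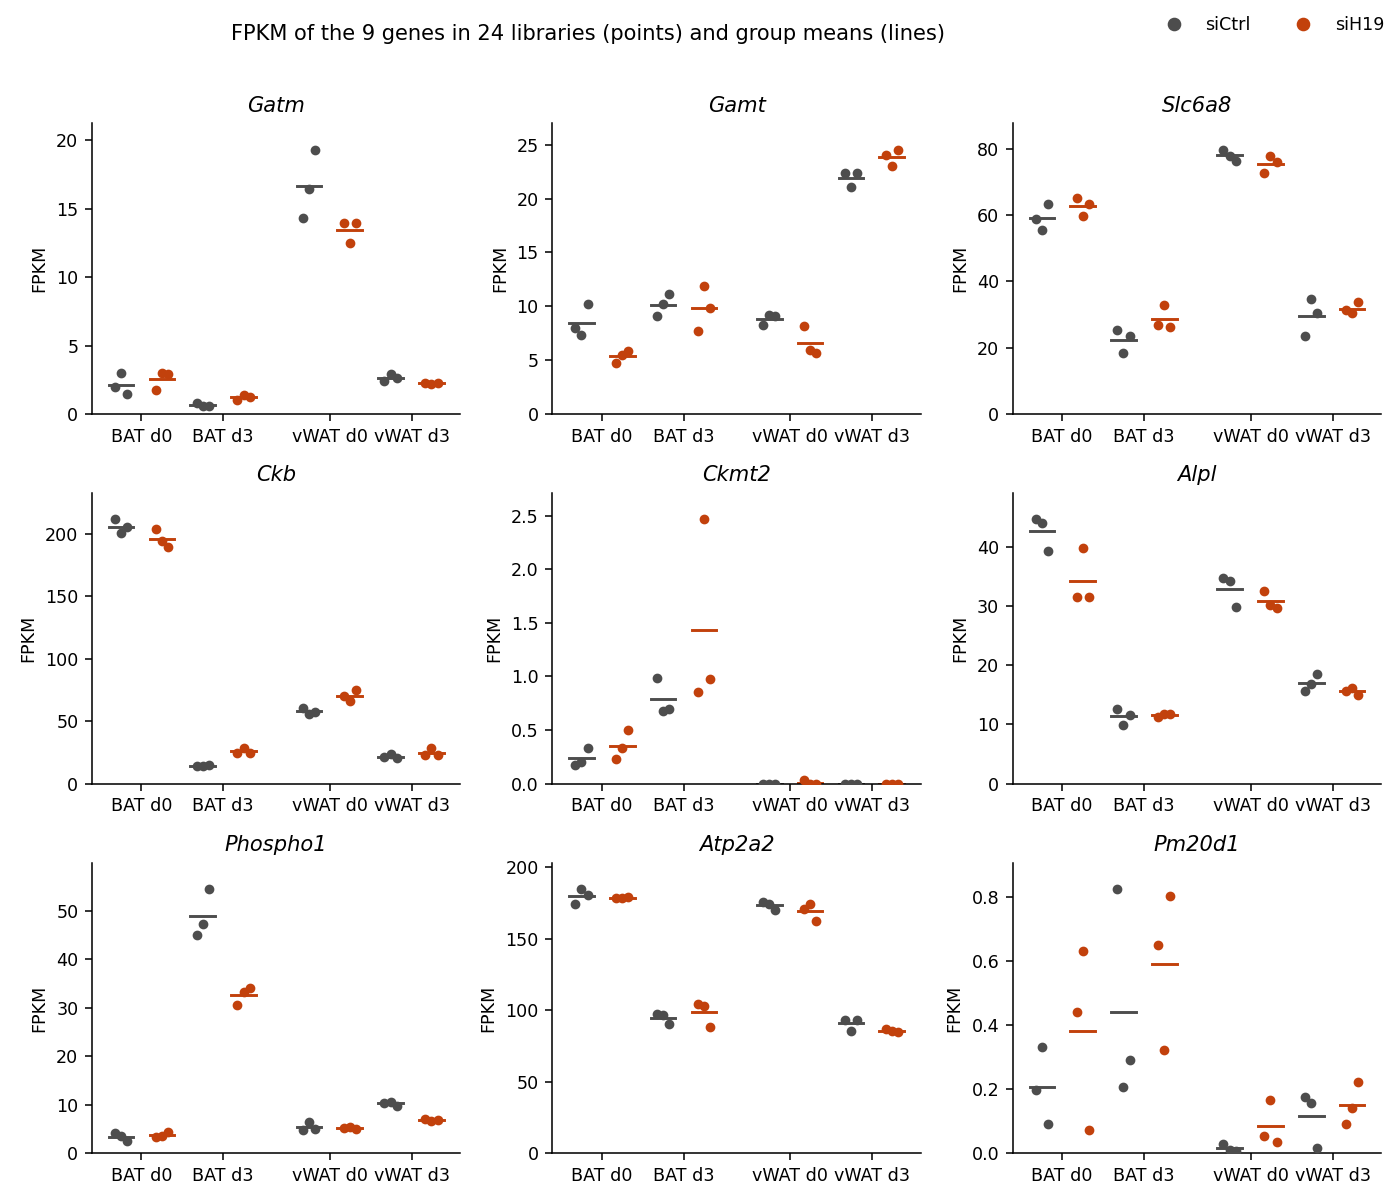
FPKM (y axis, linear, a scale of its own for each gene) of the 9 genes in the 8 groups of depot, day and siRNA (x axis); points are libraries (n = 3 per group) and lines are group means. *Ckb* stood highest in BAT at d0, at 189 to 211 FPKM, *Phospho1* highest in BAT at d3, at 30.7 to 54.5 FPKM, and *Ckmt2* was near 0 in vWAT.

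*Ckb* ranged from 13.7 to 211 FPKM over the 24 libraries, a ratio of 15.4 between the highest and the lowest (21.0 for *Phospho1* and 35.6 for *Gatm*). In siCtrl BAT precursors its 3 libraries read 211, 200.4 and 205 FPKM, and at d3 they read 14.4, 13.7 and 15.1 FPKM. In siH19 BAT cells *Ckb* read 204, 194 and 189 FPKM at d0 and 24.6, 28.4 and 24.6 FPKM at d3. Both days were far apart in either siRNA group, and at d3 the lowest siH19 library stood above the highest siCtrl library. In vWAT it read 60.4, 56.0 and 57.5 FPKM (siCtrl) and 70.3, 66.3 and 74.5 FPKM (siH19) at d0. By d3 the vWAT values were 21.0, 23.4 and 20.5 FPKM with siCtrl and 22.8, 28.7 and 23.1 FPKM with siH19, and these ranges overlapped. Ordered by mean, BAT at d0 came first with overlapping siRNA groups, followed by vWAT siH19 d0 and vWAT siCtrl d0, which did not overlap. BAT siH19 d3, vWAT siH19 d3 and vWAT siCtrl d3 then overlapped each with the next, and BAT siCtrl d3 stood lowest, apart from all others.

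*Phospho1* showed the opposite order of days. It read 4.16, 3.51 and 2.60 FPKM in siCtrl BAT precursors and 45.1, 47.3 and 54.5 FPKM at d3. With siH19 the BAT values were 3.37, 3.63 and 4.34 FPKM at d0 and 30.7, 33.4 and 34.2 FPKM at d3. The siRNA groups overlapped at d0 and were separate at d3, with the siCtrl libraries higher. In vWAT *Phospho1* read 4.81, 6.51 and 4.95 FPKM (siCtrl) and 5.18, 5.39 and 5.05 FPKM (siH19) at d0. At d3 it read 10.4, 10.6 and 9.76 FPKM with siCtrl and 6.997, 6.75 and 6.82 FPKM with siH19, again without overlap.

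The promoters of *Ckb* and *Phospho1* are shown because their mRNAs moved furthest and in opposite directions. Each is the 250 bases before the start site in RefSeq (GRCm38.p6), and capitals mark CCAAT (the CCAAT box), TATAAA (the TATA box) and GGGCGG (the GC box) on either strand.
Ckb (chr12:111672339-111672588, minus strand): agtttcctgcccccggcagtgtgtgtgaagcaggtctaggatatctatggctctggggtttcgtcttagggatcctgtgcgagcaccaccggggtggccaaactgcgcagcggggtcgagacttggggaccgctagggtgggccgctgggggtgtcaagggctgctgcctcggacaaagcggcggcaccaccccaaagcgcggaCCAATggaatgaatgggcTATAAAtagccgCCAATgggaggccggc
Phospho1 (chr11:95824250-95824499, plus strand): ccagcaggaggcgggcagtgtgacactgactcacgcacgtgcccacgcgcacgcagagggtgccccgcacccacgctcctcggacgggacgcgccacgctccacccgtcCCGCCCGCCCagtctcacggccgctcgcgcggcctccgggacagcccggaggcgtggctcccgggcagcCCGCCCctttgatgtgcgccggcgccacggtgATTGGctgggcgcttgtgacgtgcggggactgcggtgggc
The *Ckb* window held 1 TATAAA, starting at -28, between 2 CCAAT motifs starting at -46 and -16, and no GGGCGG. The *Phospho1* window held 3 GGGCGG motifs, at -141, -137 and -72, 1 CCAAT at -40 and no TATAAA. It also held CACGTG at -215 and TGACG at -24, letters found in 6.02% and 17.8% of 32851 promoter windows. CCAAT occurred in 33.8%, TATAAA in 12.4% and GGGCGG in 32.7% of the windows. AAGGTCA (4.08% of windows) and the PPAR direct repeat (0.338%) were in neither window. GC content was 62.8% for *Ckb* and 75.6% for *Phospho1*. The windows of *Gatm*, *Gamt*, *Ckmt2* and *Alpl* were searched as well, and TATAAA was found in 1 of these, before the downstream start of *Alpl* at -192; *Slc6a8*, *Atp2a2* and *Pm20d1* were not among the RefSeq windows.

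On GRCm38 the gene of *Ckb* spans 111669355 to 111672338 on chromosome 12 and that of *Phospho1* spans 95824499 to 95832140 on chromosome 11. *Ckb* shares no exonic base with another annotated gene. *Phospho1* does: 84.2% of its 2029 exonic bases are also exonic in *Abi3*, an adaptor of the actin cytoskeleton encoded on the opposite strand, and 89.6% in *Zfp652*, a zinc finger gene on the same strand. The labels name a directional library kit with paired reads and the methods a kit not called directional with single reads. The strand setting used for counting is not given in the sources used here. Reads of *Phospho1* and *Abi3* thus cannot be told apart with certainty. Strand could not separate reads from the bases shared with *Zfp652*, whatever the setting. *Abi3* read 34.1 to 39.6 FPKM in siCtrl and 26.1 to 28.5 FPKM in siH19 BAT cells at d3, against 4.12 to 4.90 FPKM in siCtrl BAT cells at d0. In all 24 libraries the Pearson r of *Phospho1* and *Abi3* was 0.986, across points that share depot, day and siRNA and, in part, the same exonic bases. *Zfp652* moved the other way, from a mean of 6.996 FPKM in siCtrl BAT cells at d0 to 3.53 FPKM at d3. Its mean at d0 lay above that of *Phospho1* in the same libraries, 3.42 FPKM. *Abi3* is known from blood cells, and of 6 macrophage markers *Ptprc*, *Csf1r* and *Cd68* averaged 0.766, 5.72 and 14.2 FPKM at d0 and 0.353, 2.07 and 5.099 FPKM at d3 in siCtrl BAT cells. *Lyz2*, the most abundant of the 6, averaged 121 and 128 FPKM, a log2 difference of 0.08 (limma adjusted p = 0.570). The other 4 of the 5 tested markers were called lower, beside 35.3% of all genes. All 6 were above 0 in at least 1 library of each group, and their sum was 131 to 163 FPKM at d0 and 126 to 158 FPKM at d3. The part of such cells in the *Abi3* and *Phospho1* values was not tested.

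**Figure D2:**
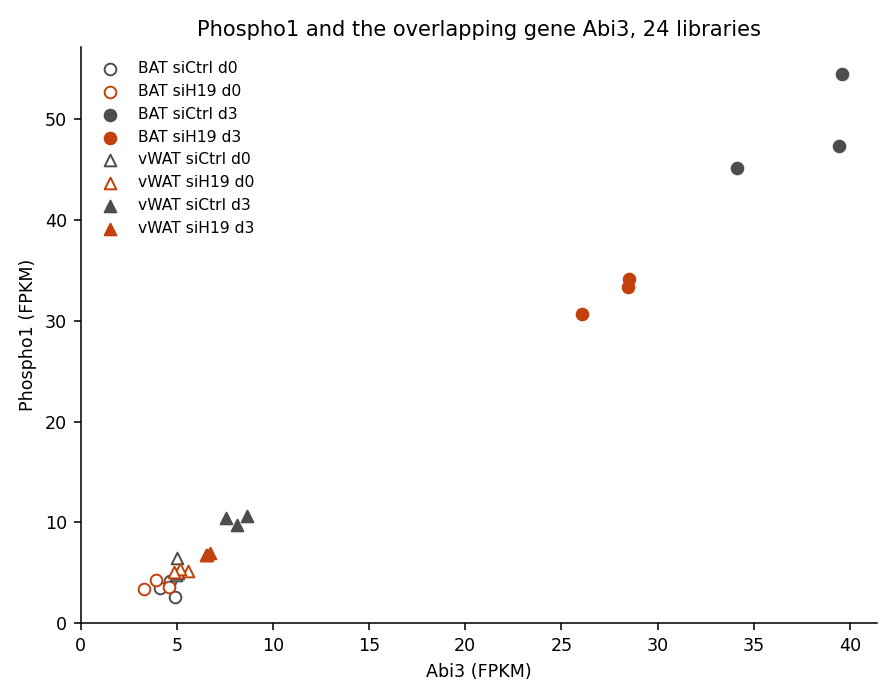
*Phospho1* (y axis, FPKM) against *Abi3* (x axis, FPKM) in 24 libraries; circles are BAT, triangles vWAT, open symbols d0, filled symbols d3, grey siCtrl and orange siH19. Both genes were highest in BAT siCtrl at d3, where *Phospho1* read 45.1 to 54.5 and *Abi3* 34.1 to 39.6 FPKM.

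The creatine synthesis genes differed between depots. *Gatm* (chromosome 2, 122594467 to 122611303) read 14.3, 16.5 and 19.3 FPKM in siCtrl vWAT precursors and 1.97, 3.00 and 1.44 FPKM in siCtrl BAT precursors. At d3 it read 2.41, 2.94 and 2.59 FPKM in vWAT and 0.766, 0.542 and 0.607 FPKM in BAT. Every vWAT library lay above every BAT library of the same siRNA at d0. With siH19, *Gatm* read 14.0, 12.5 and 14.0 FPKM in vWAT at d0 and 2.24, 2.18 and 2.29 FPKM at d3. The siH19 BAT libraries read 1.75, 2.98 and 2.91 FPKM at d0 and 1.03, 1.37 and 1.21 FPKM at d3. Thus *Gatm* was near the lower limit of the test in BAT at d3, where no siCtrl library reached 1 FPKM.

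*Gamt* (chromosome 10, 80258151 to 80261012) was highest in vWAT at d3. It read 8.25, 9.15 and 9.06 FPKM in siCtrl vWAT precursors and 22.4, 21.1 and 22.4 FPKM at d3. The siCtrl BAT libraries read 7.98, 7.29 and 10.2 FPKM at d0 and 9.05, 10.2 and 11.2 FPKM at d3, and these ranges overlapped. With siH19 the values at d0 were 4.74, 5.46 and 5.83 FPKM in BAT and 8.21, 5.93 and 5.68 FPKM in vWAT, in either depot below every siCtrl library. At d3 they were 7.71, 11.9 and 9.88 FPKM in BAT and 24.01, 23.0 and 24.5 FPKM in vWAT.

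*Slc6a8* (chromosome X, 73673150 to 73682502) was at 55.4 to 79.6 FPKM in all 12 libraries at d0 and at 18.2 to 34.6 FPKM in all 12 libraries at d3. *Alpl* (chromosome 4, 137741733 to 137796384) was at 29.7 to 44.7 FPKM at d0, at 9.96 to 12.7 FPKM in BAT at d3 and at 14.99 to 18.6 FPKM in vWAT at d3. *Atp2a2* (chromosome 5, 122453513 to 122502225) had the highest median of the 9 genes, 133 FPKM. It lay at 162 to 185 FPKM at d0 and 84.5 to 104 FPKM at d3, with the 4 groups of a day close together. Days did not overlap for any of these 3 genes.

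*Ckmt2* (chromosome 13, 91853387 to 91876885) was low and found almost only in BAT. Its siCtrl libraries read 0.170, 0.206 and 0.334 FPKM at d0 and 0.987, 0.675 and 0.693 FPKM at d3. The siH19 BAT libraries read 0.226, 0.330 and 0.499 FPKM at d0 and 0.855, 2.47 and 0.978 FPKM at d3, so that replicate 2 alone exceeded 1 FPKM. It was listed at 0 in 11 of 12 vWAT libraries, the other reading 0.0290 FPKM. *Pm20d1* (chromosome 1, 131797381 to 131821473) stayed below 1 FPKM in all 24 libraries, with a highest value of 0.824 FPKM in a siCtrl BAT library at d3. Skeletal muscle genes were also found in BAT: of 8 muscle markers 7 were in the table. In siCtrl cells at d0 *Myog*, *Tnnt3* and *Ckm* averaged 14.3, 36.7 and 2.95 FPKM in BAT, against 0, 0.758 and 0 FPKM in vWAT. *Des* went the other way, at 22.0 FPKM in BAT and 33.8 FPKM in vWAT. Of 6 markers tested there, 5 were called higher in BAT and 1 lower, beside 10.2% and 21.0% of all genes. The summed muscle markers were 74.5 to 114 FPKM in siCtrl BAT at d0 and 60.2 to 73.3 FPKM at d3, and in siCtrl vWAT 30.8 to 40.1 and 10.5 to 15.5 FPKM, mostly *Des*, with 2 and 3 of 7 markers at 0 in all 3 libraries. *Ckmt2* is itself known from striated muscle, and the part of muscle cells in its values was not tested.

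The first comparison asked how the 9 genes moved in 3 days of differentiation. Of 7 tested members, 1 was called higher and 5 lower at d3 in BAT with siCtrl, where 29.9% of all genes tested were called higher and 35.3% lower. *Ckb* fell by 3.74 on the log2 scale (SE 0.05), to 0.0701 of its d0 mean, with a limma adjusted p of 1.67e-08. *Alpl* fell by 1.82 (SE 0.10, adjusted p = 3.80e-06), *Slc6a8* by 1.38 (SE 0.12, 5.19e-05), *Atp2a2* by 0.92 (SE 0.04, 2.21e-06) and *Gatm* by 0.91 (SE 0.18, 0.00353). *Gatm* passed the filter through its d0 libraries only, so that a fall was the only change it could show. *Phospho1* rose 14.3-fold, by 3.51 (SE 0.14, adjusted p = 1.15e-06), and *Abi3* by 2.80 (SE 0.09). *Gamt* was at a log2 difference of 0.24 (95% interval -0.08 to 0.56, adjusted p = 0.139). In the same cells *Ucp1* averaged 0.0204 FPKM at d0 and 12.1 FPKM at d3. It passed the filter through its d3 libraries only and could show only a rise. Over all genes tested the median difference was -0.10.

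Osteoblast genes are given beside *Alpl*, which bone-forming cells also use. Of 7 osteoblast markers, all in the table, *Sp7* averaged 17.5 FPKM in siCtrl BAT cells at d0 and 1.36 FPKM at d3, while *Bglap*, *Ibsp* and *Dmp1* averaged less than 0.2 FPKM at both days. The summed list was 123 to 132 FPKM at d0 and 33.6 to 54.1 FPKM at d3, and the part of such cells in the *Alpl* values was not tested. In siCtrl vWAT cells, where *Sp7* averaged 0.436 FPKM at d0, *Alpl* averaged 33.0 FPKM (42.7 in BAT), and the summed list, mostly *Spp1*, was 782 to 940 FPKM at d0 and 177 to 197 FPKM at d3.

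In siH19 BAT cells 2 members were called higher and 5 lower, beside 30.8% of all genes higher and 29.8% lower. *Gamt*, which had not passed with siCtrl, rose by 0.76 (SE 0.15) from d0 to d3, with a limma adjusted p of 0.00387. *Ckb* fell by 2.87 (SE 0.07) and *Phospho1* rose by 2.82 (SE 0.10), and *Gatm*, *Slc6a8*, *Alpl* and *Atp2a2* were called lower, at -0.67, -1.11, -1.48 and -0.86.

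In siCtrl vWAT cells 2 members were called higher and 5 lower, beside 26.3% and 23.9% of all genes. *Gamt* rose 2.49-fold, by 1.23 (SE 0.06, limma adjusted p = 7.63e-06), and *Phospho1* 1.90-fold, by 0.82 (SE 0.11, adjusted p = 0.000723). *Gatm* fell most, by 2.27 (SE 0.12, adjusted p = 8.32e-06), followed by *Slc6a8* and *Ckb*, which fell by 1.39 and 1.38, *Atp2a2*, which fell by 0.93, and *Alpl*, which fell by 0.91. In siH19 vWAT cells 1 member was called higher and 5 lower, beside 28.2% and 24.5% of all genes. There *Phospho1* was at a difference of 0.34 (SE 0.07, limma adjusted p = 0.00353), below the minimum of 1.3-fold on the scale of FPKM + 1. With a pseudocount of 0.1 in place of 1 *Phospho1* was called, at 0.39 (limma adjusted p = 0.00321). *Gamt* rose by 1.72 (SE 0.13).

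**Figure D3:**
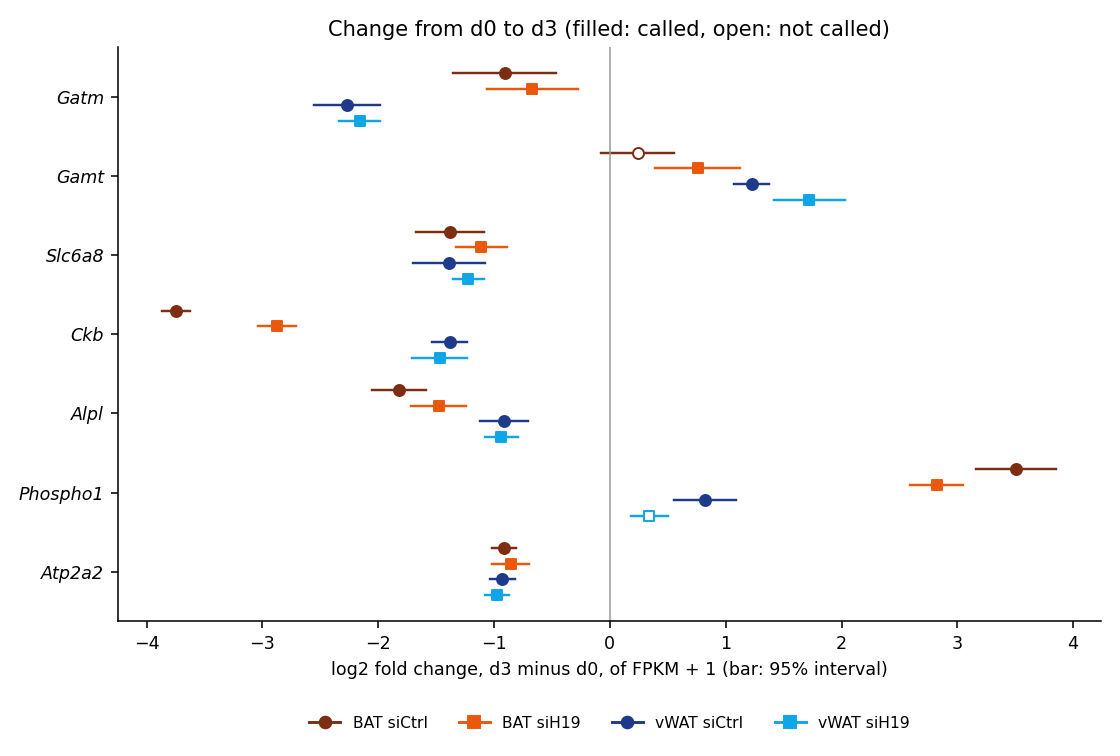
Log2 fold change of FPKM + 1 from d0 to d3 (x axis) for the 7 tested members (y axis) in the 4 combinations of depot and siRNA; bars are 95% intervals (n = 3 against 3) and filled symbols were called. *Ckb* lay at -3.74 in BAT siCtrl and -1.38 in vWAT siCtrl, *Phospho1* at 3.51 and 0.82, and *Atp2a2* between -0.98 and -0.86 in all 4.

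For the untested pair, *Ckmt2* rose from a mean of 0.237 to 0.785 FPKM in siCtrl BAT cells and from 0.352 to 1.43 FPKM in siH19 BAT cells, without overlap between days in either, each at the smallest exact permutation p of 0.1. Tested by limma without the filter, *Ckmt2* was called in siCtrl BAT (0.53, adjusted p = 0.00522). *Pm20d1* averaged 0.207 and 0.441 FPKM at d0 and d3 in siCtrl BAT cells (exact permutation p = 0.4).

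The interaction of depot and day in siCtrl cells tests whether the change from d0 to d3 differed between BAT and vWAT. Of 7 tested members 5 were called, as were 53.0% of all genes. The log2 change of *Ckb* in BAT less that in vWAT was -2.36 (SE 0.08, limma adjusted p = 4.66e-09), and that of *Phospho1* was higher in BAT by 2.69 (SE 0.19, adjusted p = 8.81e-07). The change of *Gatm* was less negative in BAT, at a difference of 1.36 (SE 0.23, adjusted p = 0.000586). Over the alternatives this was 1.06 to 1.55, with limma adjusted p of 2.67e-05 to 0.0194. No siCtrl BAT library reached 1 FPKM at d3, so that the size of the *Gatm* fall there depends on the 1 added to FPKM. For *Gamt* the difference was -0.99 (SE 0.15, adjusted p = 0.000260) and for *Alpl* -0.91 (SE 0.14, adjusted p = 0.000204). *Slc6a8* and *Atp2a2* were at 0.01 in the same test, with 95% intervals of -0.43 to 0.44 and -0.12 to 0.14.

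The depots were then compared within siCtrl cells. BAT precursors were higher than vWAT precursors in 1 and lower in 3 of 7 tested members, beside 10.2% of all genes higher and 21.0% lower. *Ckb* was 3.55-fold higher in BAT, by 1.81 (SE 0.04, limma adjusted p = 8.20e-07). *Gatm* was lower by 2.52 (SE 0.20, adjusted p = 0.000105), at 0.128 of the vWAT mean, *Phospho1* by 0.54 (SE 0.16, adjusted p = 0.0337) and *Slc6a8* by 0.39 (SE 0.06, adjusted p = 0.00153). *Alpl* differed by 0.37, below the minimum fold, and *Gamt* and *Atp2a2* were at -0.06 (95% interval -0.35 to 0.23) and 0.05 (-0.03 to 0.14). Mesothelial markers also differed: 4 of 4 were called lower in BAT, and 3 of 4 after median-ratio scaling, beside 21.0% and 14.0% of all genes. Summed, these markers were at 80.1 to 93.5 FPKM in siCtrl vWAT and 5.14 to 5.91 FPKM in siCtrl BAT at d0. The part of such cells in the *Gatm* values and those of the other members was not tested.

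At d3 1 member was higher and 4 were lower in BAT, beside 16.5% of all genes higher and 32.1% lower. *Phospho1* was 4.77-fold higher in BAT, by 2.14 (SE 0.08, limma adjusted p = 2.20e-06). *Gatm* was lower by 1.15 (SE 0.10), *Gamt* by 1.05 (SE 0.08), *Ckb* by 0.55 (SE 0.07) and *Alpl* by 0.55 (SE 0.10), with adjusted p between 4.92e-05 and 0.00326. *Gatm* passed the filter here through vWAT only. *Ckb*, higher in BAT at d0, thus stood lower there at d3. Exact permutation p was 0.1 for *Ckmt2* and *Pm20d1* at either day, both higher in BAT without overlap, and limma without the filter called *Ckmt2* at d3 (0.83, adjusted p = 0.000492).

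Scaling bears on the depot comparisons. When libraries were scaled by the median ratio of their genes, the median difference of all genes moved by 0.13 at d0 and by 0.24 at d3 towards BAT, and the share of calls that were higher in BAT went from 32.8% to 51.3% at d0 and from 33.9% to 57.3% at d3. *Ckb* and *Alpl* at d3 were then at -0.30 and -0.29, under the minimum fold, with limma adjusted p of 0.00725 and 0.0378 (over all alternatives 3.30e-06 to 0.00725 and 3.18e-05 to 0.0378). At d0 *Phospho1* (-0.42, adjusted p = 0.0900) and *Slc6a8* (-0.25, 0.00934) were no longer called, and *Alpl* was, at 0.51 (0.00292). *Atp2a2* went to 0.20 at d0 and 0.33 at d3. The calls of *Gatm* at both days, *Ckb* at d0 and *Gamt* and *Phospho1* at d3 were made under both scalings. Leaving out 1 library ended the call of *Phospho1* at d0 in 5 of 6 fits, namely each library except siCtrl BAT replicate 1, with adjusted p of 0.0509 to 0.0953. The call of *Slc6a8* at d0 was lost without siCtrl BAT replicate 2, where its difference of -0.35 fell short of the minimum fold, and at d3 *Slc6a8* was called, at -0.54 and -0.39, without siCtrl vWAT replicate 1 and in 1 fit on all 24 libraries (adjusted p = 0.0236 and 0.00647, over all alternatives 0.00647 to 0.515). *Alpl* at d0 was called without siCtrl BAT replicate 3 and without siCtrl vWAT replicates 1 or 2, at 0.40 to 0.42.

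The siRNA groups were then compared, to ask what silencing of *H19* did to these genes. In BAT precursors at d0 none of the 7 tested members was called in either direction by limma, beside 0.617% of all genes higher and 1.32% lower. *Gamt* came nearest, at 0.629 of its siCtrl mean and a log2 difference of -0.57 (SE 0.13, limma adjusted p = 0.0759). It was the only member called when all 24 libraries shared 1 fit (adjusted p = 0.0103, over all alternatives 0.0103 to 0.172). *Alpl* was at -0.32 (SE 0.10, adjusted p = 0.163), and *Ckb* at -0.07 (95% interval -0.17 to 0.03). At an unadjusted p under 0.05, 2 of the 7 members, *Gamt* and *Alpl*, passed, beside 19.62% of all genes. In the same libraries the summed adipocyte markers were 1132 to 1571 FPKM with siH19 and 2513 to 2713 FPKM with siCtrl, none was at 0 in all libraries of a group, and 6 of the 7 were called lower. Their part in these values was not tested. Of all calls 31.8% were higher with siH19, and 46.0% after scaling by median ratio.

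In BAT cells at d3, 2 of 7 tested members were called higher with siH19 and 1 lower, beside 6.39% of all genes higher and 2.18% lower. *Ckb* was 1.79-fold higher, by 0.80 (SE 0.08, limma adjusted p = 0.00289), and in all 12 alternatives it was called, at 0.73 to 0.84. *Phospho1* was at 0.668 of its siCtrl mean, lower by 0.56 (SE 0.08, adjusted p = 0.00744), and was called in all 12 alternatives, at -0.64 to -0.49. *Abi3*, which shares its exonic bases, was lower by 0.43 (SE 0.08, adjusted p = 0.0132), a call lost without siCtrl replicate 2 (-0.40, 0.0549, over all alternatives 0.000702 to 0.0549). *Gatm* averaged 1.202 FPKM with siH19 and 0.638 FPKM with siCtrl, a log2 difference of 0.43 (SE 0.11) with an adjusted p of 0.0493. It passed the filter only through its siH19 libraries, so that it could be called in this direction only. Its call was lost in 7 of 9 alternatives, among them without siCtrl replicate 1 (0.48, adjusted p = 0.0650), replicate 2 (0.38, 0.149) or replicate 3 (0.41, 0.118), over a range of 0.0484 to 0.149. *Slc6a8* was at 0.35 (SE 0.14, limma adjusted p = 0.137). *Gamt*, *Alpl* and *Atp2a2* were at -0.06, 0.03 and 0.05, with 95% intervals of -0.42 to 0.31, -0.19 to 0.25 and -0.12 to 0.22.

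*Ucp1* was lower in the same cells by 1.75 (SE 0.24, limma adjusted p = 0.00620), at 2.00, 2.93 and 3.63 against 8.84, 11.2 and 16.3 FPKM. The summed 6 precursor markers, all found and none at 0, were 384 to 430 FPKM with siCtrl and 635 to 693 FPKM with siH19. *Ly6a* made up most of these sums, with means of 252 and 456 FPKM. Of 5 tested precursor markers 4 were called higher, and 1 after median-ratio scaling, beside 6.39% and 4.47% of all genes. The 8 brown adipocyte markers summed to 820.03 to 935 and 490.4 to 561 FPKM, and the 6 macrophage markers to 126 to 158 and 79.7 to 90.4 FPKM. *Elovl3* and *Cox7a1* made up most of the brown sums. Of the 8 brown markers 6 were called lower, while the means of *Dio2* and *Prdm16* hardly differed. The 7 adipocyte markers summed to 34962 to 36657 FPKM with siCtrl and 31785 to 34150 FPKM with siH19. By limma 0 of these 7 were called (1 lower after median-ratio scaling), and 6 had an unadjusted p under 0.05, beside 31.30% of all genes. In the same libraries *Ckb*, which was lower in siCtrl cells at d3 than at d0, lay with siH19 between these values. The part of these cell populations in the values of *Ckb* and *Phospho1* was not tested. Of all calls 74.6% were higher with siH19, and 53.1% after scaling by median ratio, which moved the median of all genes by -0.07. *Ckmt2* and *Pm20d1* gave exact permutation p of 0.3 and 0.6.

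In vWAT 0 of 7 tested members were called by limma at d0, beside 0.329% of all genes higher and 1.20% lower, and 0 of 7 at d3, beside 0.00764% higher and 0.0229% lower. At d0 *Ckb* was at 0.27 (SE 0.06, limma adjusted p = 0.0749), *Gamt* at -0.38 (SE 0.13, 0.213) and *Gatm* at -0.28 (SE 0.11, 0.261). These 3 had an unadjusted p under 0.05, as did 17.63% of all genes. Adipocyte markers in vWAT at d0 summed to 1807 to 2070 FPKM with siH19 and 3309 to 3333 FPKM with siCtrl, with 6 of 7 called lower, and their part in these values was not tested. At d3 *Phospho1* was at 0.667 of its siCtrl mean, at -0.52 (95% interval -0.67 to -0.37, unadjusted p = 9.56e-05, adjusted p = 0.118 and 0.0618 to 0.388 over the alternatives), and was the 1 member of 7 under 0.05 unadjusted, beside 10.04% of all genes. In that comparison 4 of 13097 genes were called. *Pm20d1* averaged 0.0158 FPKM with siCtrl and 0.0852 FPKM with siH19 at d0 (exact permutation p = 0.1).

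**Figure D4:**
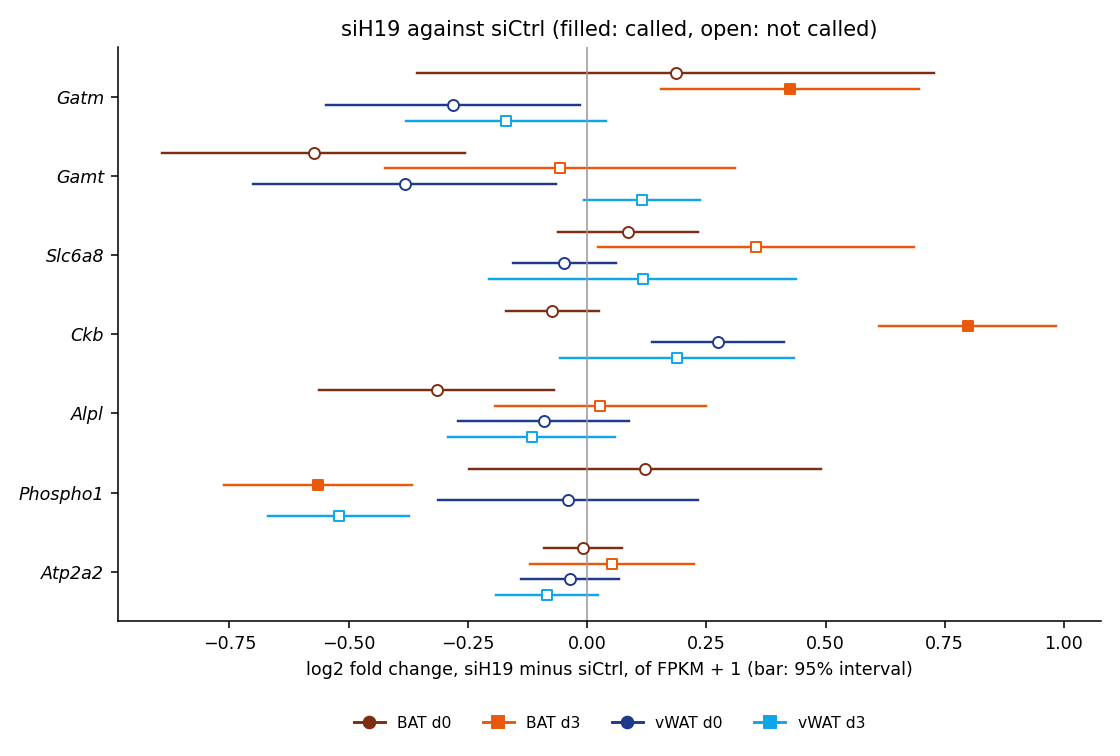
Log2 fold change of FPKM + 1 with siH19 against siCtrl (x axis) for the 7 tested members (y axis) in BAT and vWAT at d0 and d3; bars are 95% intervals (n = 3 against 3) and filled symbols were called. The filled symbols are *Gatm* (0.43), *Ckb* (0.80) and *Phospho1* (-0.56) in BAT at d3, and *Phospho1* in vWAT at d3 lay at -0.52.

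The difference of the siH19 effect between depots at d3 was tested as an interaction. It was called for 2 of 7 members, beside 10.5% of all genes (66.6% of these calls higher in BAT, 43.3% after scaling by median ratio). The siH19 effect on *Ckb* was higher in BAT by 0.61 (SE 0.13, limma adjusted p = 0.0179), and that on *Gatm* by 0.60 (SE 0.13, adjusted p = 0.0178, 0.0159 to 0.0815 over the alternatives). For *Phospho1* the effects differed by -0.04 (95% interval -0.27 to 0.18). Although *Phospho1* was called in BAT and not in vWAT, its 2 effects were thus not shown to differ.

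The interaction of day and siRNA in BAT was called for 2 of 7 members, beside 9.06% of all genes (86.0% of these calls higher, 57.4% after scaling). The siH19 effect on *Ckb* was higher at d3 than at d0 by 0.87 (SE 0.09, limma adjusted p = 0.000615), and that on *Phospho1* lower by 0.69 (SE 0.18, adjusted p = 0.0418, 0.00731 to 0.0897 over the alternatives). The *Phospho1* call was lost in 10 of 12 fits that left out 1 library, all except those without siCtrl or siH19 replicate 1 of d0. *Gamt* and *Alpl* were at 0.52 and 0.34 (adjusted p of 0.174 and 0.176).

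Related genes of the pathways were counted beside the members. Of 14 creatine neighbours 11 were tested between days in siCtrl BAT, and 8 were called higher and 2 lower, beside 29.9% and 35.3% of all genes, with a median difference of 0.90 (-0.10 over all genes tested). The adenine nucleotide translocator *Slc25a5* rose by 1.55, the outer membrane channel *Vdac1* by 1.53, and *Shmt1*, which feeds glycine and one-carbon units, by 1.92, while muscle creatine kinase *Ckm*, which passed the filter through its d0 libraries only, fell by 1.36. In siCtrl vWAT 3 of 10 rose and 2 fell, near the 26.3% and 23.9% of all genes, among them *Odc1* of polyamine synthesis, which fell by 1.40. With siH19 0 of 11 creatine neighbours (0 of 10 outside BAT d0) were called by limma in either depot at either day. An unadjusted p under 0.05 was reached by 6 of 10 in BAT at d3, beside 31.30% of all genes, with a median of -0.19 against 0.05 over all genes tested. It was reached by 1 in each other comparison, beside 10.04% to 19.62% of all genes. *Slc25a5* and *Vdac1* were among the 6, at -0.19 and -0.21 (adjusted p of 0.0221 and 0.0215), short of the minimum fold. The depot and siRNA interaction at d3, which had no minimum fold, was called lower for 5 of 10 beside 3.52% of all genes, and for 6 of 10 beside 5.86% after median-ratio scaling.

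Of 11 genes of phosphatases and phosphate handling 10 were in the table and 7 were tested, and 3 rose and 4 fell from d0 to d3 in siCtrl BAT and in siCtrl vWAT alike, beside 29.9% and 35.3% of all genes in BAT and 26.3% and 23.9% in vWAT. The inorganic pyrophosphatase *Ppa1* rose by 3.44 in BAT and 2.47 in vWAT. The phosphate transporter *Slc20a1* was lower at d3, at -3.22 in BAT and -2.97 in vWAT, as was *Enpp1*, which makes the pyrophosphate that *Alpl* hydrolyses, at -2.84 and -2.92. *Phospho2*, a relative of *Phospho1* that shares no exonic base with it, rose by 1.23 in BAT and 0.44 in vWAT. Whether *Phospho2* shares exonic bases with other genes was not examined. With siH19 0 of 7 were called by limma in each of the 4 comparisons (1 higher in BAT at d0 after median-ratio scaling). An unadjusted p under 0.05 was reached at d0 by 1 in BAT and 2 in vWAT, beside 19.62% and 17.63% of all genes, and at d3 by 3 in BAT and 1 in vWAT, beside 31.30% and 10.04%.

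Of 24 calcium cycling genes 18 were tested between days in siCtrl BAT, with 4 called higher and 8 lower (5 lower after median-ratio scaling), near the 29.9% and 35.3% of all genes. *Atp2a3*, the SERCA3 pump, which passed the filter through its d3 libraries only, rose by 2.31 to a mean of 6.06 FPKM and the mitochondrial *Letm1* by 2.70 to 138 FPKM, while the plasma membrane pump *Atp2b1* fell by 1.69 and the lumenal calcium binder *Calr* by 1.05. *Atp2a1*, the SERCA1 pump of fast muscle, averaged 7.98 and 11.4 FPKM in siCtrl BAT cells at d0 and d3 and 0.101 and 0.182 FPKM in vWAT, beside the muscle markers given above. Per length, *Atp2a2* was the most abundant of the 3 pumps in both depots. With siH19 in BAT at d3, *Calr* rose by 0.39 (SE 0.03, limma adjusted p = 0.00197) and *Atp2a3* fell by 0.54 (SE 0.09, adjusted p = 0.0108), with 15 of 17 not called, beside 6.39% of all genes higher and 2.18% lower. After median-ratio scaling 0 of 17 were called higher and 2 lower. In siCtrl vWAT 2 of 16 rose and 2 fell between days, beside 26.3% and 23.9% of all genes. Of 5 genes of N-acyl amino acid handling 4 were tested. Between days in siCtrl BAT 3 were called higher and 0 lower, beside 29.9% and 35.3% of all genes, with *Aspa*, aspartoacylase, rising by 3.29. In siCtrl vWAT 2 were called higher and 0 lower, beside 26.3% and 23.9%. *Pm20d2*, a relative of *Pm20d1*, averaged 0.515 FPKM with siH19 and 1.66 FPKM with siCtrl in BAT at d0, a log2 difference of -0.80 (SE 0.14, limma adjusted p = 0.0385), and passed the filter through its siCtrl libraries only, so that it could only be called lower. It was the 1 gene of 4 called there, beside 0.617% of all genes higher and 1.32% lower. Of the 3 uncouplers *Ucp2* rose by 3.27 from d0 to d3 in siCtrl BAT and by 2.05 in siCtrl vWAT.

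The genes whose log2(FPKM + 1) followed each member most closely over the 24 libraries, among 12490 genes, are given as a description, since all points share depot, day and siRNA. For *Ckb* they were *Pls3* (r = 0.995), *Ppp1r18* (0.992) and *Ralb* (0.990). For *Phospho1* they were *Slmo2* (0.988), *Abi3* (0.986) and *Tubb4b* (0.985). *Gatm* was followed by *Slc38a1* (0.987), *Sik1* (0.982) and *Kdr* (0.981), and *Gamt* less closely by *Osgep* (0.961), *Pde11a* (0.960) and *Sfxn2* (0.952). *Slc6a8* was followed by *Ccl7*, *Rai14* and *Ltbp2* (all 0.981), *Alpl* by *S1pr1* (0.983), *Fam160b1* (0.981) and *Olfml3* (0.980), and *Atp2a2* by *Mical2*, *Nhlrc2* (both 0.990) and *Ttc37* (0.989).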

How the data were processed

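Libraries were enriched for poly-A RNA, per the labels. The authors mapped reads to GRCm38 with TopHat2 and used Cufflinks, per the methods. The submitters' processing notes give TopHat2 2.0.10 and Cufflinks 2.2.1, where the methods give another Cufflinks version, and also list STAR. The deposited table names no unit, and its values were taken as the authors' FPKM. FPKM depend on library composition, so that a rise of a few abundant genes lowers all others. Of its columns 0 belonged to other samples. *H19* was matched by Ensembl gene ID. Groups came from the labels, in which siKO marks the controls. The deposited table holds no counts, so that counting intervals cannot be given. Comparisons used limma 3.58.1 (R 4.3.3, eBayes with trend), fitted on the 6 libraries compared, or on 12 for interactions, which had no minimum fold. Alternatives were a pseudocount of 0.1, no filter, median-ratio scaling, 1 fit on 24 libraries, a replicate block, no minimum fold and leaving out each library. The fit was run on simulated data with known changes, for comparisons of pairs of groups only. Interactions, shifts of library composition and changes in genes near the floor were not covered. Members and lists were chosen with earlier results of these data known. All members were named, with *H19*, *Ucp1*, up to 4 called list genes per comparison and the 3 nearest genes by r. *Abi3*, *Zfp652* and marker genes, *Atp2a1*, *Phospho2*, *Ckm* and other list genes outside this rule were named after their values were seen. Overlaps used GENCODE M21.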

Additional observations from a re-analysis of the deposited data

Results flagged for a closer look

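Effects on 5 members differed between groups by an interaction test (limma, adjusted p over all genes). *Ckb* did so in all 3 contrasts: its siH19 effect at d3 was higher in BAT than in vWAT by 0.61, its siH19 effect in BAT was higher at d3 than at d0 by 0.87, and its change from d0 to d3 in siCtrl cells was at -2.36 in BAT relative to vWAT. *Phospho1* did so in 2, with a siH19 effect in BAT at d3 relative to d0 of -0.69, a call lost in 13 of 17 alternatives (adjusted p of 0.00731 to 0.0897), and a change from d0 to d3 in siCtrl cells that was higher in BAT by 2.69. The *Phospho1* values rest largely on exonic bases shared with *Abi3* and, on the same strand, with *Zfp652*. The change of *Abi3* between days also differed between depots, by 2.199 (SE 0.11). *Gatm* was higher in BAT by 0.60 for the siH19 effect at d3 and by 1.36 for the change between days (1.06 to 1.55 over the alternatives). Both rest on siCtrl BAT libraries that were below 1 FPKM at d3. For the change between days *Gamt* was at -0.99 and *Alpl* at -0.91 in BAT relative to vWAT.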

How the results depend on the processing

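Over the single member values and their alternatives, 1170 kept their status, called or not called, 32 lost a call and 13 gained one. No called value turned direction. The 1170 include values called under neither setting, among them values of *Ckmt2* and *Pm20d1*, which had no main test. The number of members called moved by over 1.5 times in few cases. With 1 fit on 24 libraries it was 1 for siH19 in BAT at d0 and 1 for the depot and siRNA interaction. Median-ratio scaling gave 3 for BAT against vWAT at d3. For the day and siRNA interaction it was 1 with a pseudocount of 0.1, without the filter, and with the replicate block. Leaving out 1 library gave 2 to 4 members for BAT against vWAT at d0 and 1 to 2 for the day and siRNA interaction. The replicate numbers did not pair the libraries: same-numbered libraries correlated at -0.14 to 0.09 in their deviations, and every library correlated best with its own number in 1 of 10 comparisons. Counts over all genes moved more: for siH19 in BAT at d0 from 245 calls to 35 without the filter, 518 in 1 fit on 24 libraries, 395 without a minimum fold, 2 with the replicate block and 4 to 74 without any 1 of the 6 libraries (4 without siCtrl replicate 3). For siH19 in vWAT at d0 they moved from 200 to 65, 385, 265, 2 and 37 to 122 (37 without siCtrl replicate 2). At d3 they moved from 4 to 20 in 1 fit on 24 libraries, 0 with the block (1280 genes at an unadjusted p under 0.05) and 1 to 5 without 1 library. For siH19 in BAT at d3 they moved from 1071 to 2023 without a minimum fold and 631 to 916 without 1 library (631 without siCtrl replicate 2), and for BAT against vWAT at d0 from 4096 to 6386. Depth was only estimated, in relative terms, and genes under 1 FPKM, such as *Ckmt2* and *Pm20d1*, are the least certain.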
